A study of Mus musculus with 6 samples.

Results

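The genes of the non-muscle actin cytoskeleton described here were Actb, Actg1, Tmsb4x, Tmsb10, Pfn1, Cfl1, Arpc1b, Coro1a, Lcp1 and Vim. They were chosen by name, and their 10 rows were found once each among the 30914 genes of the table. RNA sequencing had been performed on heart tissue of wild-type male C57BL/6J mice. Their age is given as 8 weeks, which is the age at which the study obtained them, before the infusion. The 3 mice of the Ang II group were infused with angiotensin II at 1 μg/kg/min for 4 weeks through osmotic pumps, which induces pathological cardiac hypertrophy. The 3 mice of the Ang II + Tec group received the same infusion together with tectochrysin (Tec) at 5 mg/kg during the last 2 weeks, so both groups carried Ang II, and hearts without Ang II were not analysed here. The 6 libraries are separate hearts by their titles. The levels are FPKM, which scale the fragments of a gene to its length and to the size of the library, so levels of different genes can be set side by side. Read totals cannot be taken from FPKM, and the study states its depth only as a nominal value for the transcriptome. A relative depth was inferred from the most common low value of FPKM times gene length among short rows, such as pseudogenes. This estimate, which is not a count of reads, ranged from 0.883 to 1.20 over the libraries.

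Actin exists in every cell as free monomer and as filament. The cytoplasmic actins β-actin (Actb) and γ-actin (Actg1) build the filaments of non-muscle cells, whereas the sarcomere of the cardiomyocyte is built from cardiac α-actin (Actc1). Thymosins β4 and β10 (Tmsb4x, Tmsb10) hold actin monomers in reserve and profilin (Pfn1) hands them to growing filament ends. The Arp2/3 complex, of which Arpc1b is a subunit, starts new branches, cofilin (Cfl1) severs old filaments, and coronin 1A (Coro1a) and L-plastin (Lcp1) are actin-binding proteins best known from leukocytes. Vimentin (Vim) forms the intermediate filaments of fibroblasts, endothelial cells and leukocytes. β-Actin is widely used as a reference gene, on the premise that its mRNA level does not move with the treatment, and the study lists primers for it among its qPCR primers.

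The stretch of the mouse Actb mRNA between the study's primers, forward ctacctcatgaagatcctgacc and reverse cacagcttctctttgatgtcac, is shown because it shows how alike both cytoplasmic actins are. It is 90 bases long and lies within coding exon 4 of Actb at chr5:142904496-142904585 (minus strand, GRCm38). The same stretch of Actg1 lies within its coding exon 4 at chr11:120347063-120347152 (minus strand). Both are printed from the GENCODE M21 transcripts, with the 9 bases that differ in capitals.
Actb: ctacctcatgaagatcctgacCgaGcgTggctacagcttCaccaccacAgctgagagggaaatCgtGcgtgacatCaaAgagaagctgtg
Actg1: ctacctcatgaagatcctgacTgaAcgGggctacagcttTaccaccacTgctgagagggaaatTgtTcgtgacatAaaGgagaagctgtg
Of the 9 differences, 1 lies under the forward primer and 2 lie under the reverse primer. Over the whole coding sequence of 1128 bases, Actb and Actg1 differed at 128 bases and were 88.7% identical. Of all stretches of 50 bases in the Actb transcripts, 9.12% also occurred in transcripts of another gene, and 1.03% occurred in those of Actg1. For Actg1 the share was 37.4%, and the row of Gm12715, which shares 33.2% of its stretches, stood at 17.0 to 19.1% of the Actg1 level in every library.

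Thymosins β4 and β10 offer a contrast, since their genes encode peptides of the same length with far less sequence in common. The coding sequences are printed from the GENCODE M21 transcripts, from chrX:167207501-167208036 for Tmsb4x and chr6:72957618-72958012 for Tmsb10 (both minus strand, spliced), with the 40 of 135 bases that differ in capitals.
Tmsb4x: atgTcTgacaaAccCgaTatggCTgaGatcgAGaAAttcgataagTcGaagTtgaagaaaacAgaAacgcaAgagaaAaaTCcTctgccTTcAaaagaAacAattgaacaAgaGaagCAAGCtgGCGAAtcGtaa
Tmsb10: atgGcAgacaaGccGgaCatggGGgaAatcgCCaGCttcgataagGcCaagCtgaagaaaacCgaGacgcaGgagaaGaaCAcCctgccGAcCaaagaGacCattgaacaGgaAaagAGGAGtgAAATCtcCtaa
Identity between them was 70.4%. No stretch of 50 bases in the transcripts of Tmsb4x, Pfn1, Coro1a or Vim occurred in another gene. The shares were 27.0% for Tmsb10, 18.3% for Cfl1, 24.3% for Arpc1b and 8.17% for Lcp1. What such sharing adds to or takes from the FPKM of these 4 genes was not tested, and the genes that share stretches with Tmsb10 stood at 1.68 FPKM or less. Pdap1, a neighbouring gene, held 16.6% of the Arpc1b stretches.

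Serum response factor, whose MRTF coactivators are released when actin monomer is scarce, binds the CArG box and is known to drive actin genes. The RefSeq promoter table (GRCm38.p6) held 13 windows for 9 of the 10 genes, and Actb had no entry. A CArG box was found in 1 of these windows, that of Actg1, from 90 to 81 bases before the start of transcription. Over all genes 1.63% of 32851 windows of 300 bases held one. The 200 bases that end 51 bases before the Actg1 start, chr11:120348546-120348745 (minus strand), are printed with the box in capitals.
Actg1: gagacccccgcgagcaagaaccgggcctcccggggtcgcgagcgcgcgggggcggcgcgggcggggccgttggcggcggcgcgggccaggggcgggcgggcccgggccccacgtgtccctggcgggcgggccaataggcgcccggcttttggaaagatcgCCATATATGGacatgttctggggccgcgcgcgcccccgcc

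Before the values, the libraries need a description, since they did not divide by group. The first principal component over the tested genes held 68.7% of the variance. It set Ang II replicates 1 and 2, at 31.2 and 46.0, apart from Ang II replicate 3 at -19.2, which lay among the Ang II + Tec libraries at -28.6, -2.39 and -27.0. The mitochondrial genome took 40.1 to 48.9% of the FPKM in the Ang II libraries and 49.6 to 52.5% in the Ang II + Tec libraries. Cardiomyocyte markers were high in every library, with a sum of 4726 to 6848 FPKM. The summed atrial markers (Myl7, Myl4, Sln and Bmp10) were at 637 and 797 FPKM in Ang II replicates 1 and 2 and at 1568 FPKM in Ang II + Tec replicate 2, and between 0.29 and 2.62 FPKM in the other 3 libraries.

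The mean of each of the 10 genes was lower with Tec than without, with log2 fold changes from -1.12 to -0.45, and none passed the test across all genes. The test was limma on log2(FPKM + 1) over 13089 genes with Benjamini-Hochberg adjustment, in which 24 genes (0.183%) had an adjusted p under 0.05. The adjusted p-values of the 10 genes ranged from 0.201 to 0.290. Their median log2 fold change was -0.87, beside -0.17 over all genes tested, of which 80.0% lay below 0. Before adjustment, 8 of the 10 had a p under 0.05 and a lower mean with Tec, where 16.5% of all tested genes did. None had a p under 0.05 and a higher mean, where 2.09% of all tested genes did. The groups did not overlap for 4 of the 10, Tmsb4x, Cfl1, Coro1a and Lcp1, where 18.9% of all tested genes were lower without overlap. Ang II replicate 2 was the highest library and Ang II replicate 1 the second for all 10 genes. The third place went to Ang II + Tec replicate 2 for 6 genes and to Ang II replicate 3 for 4.

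**Figure D1:**
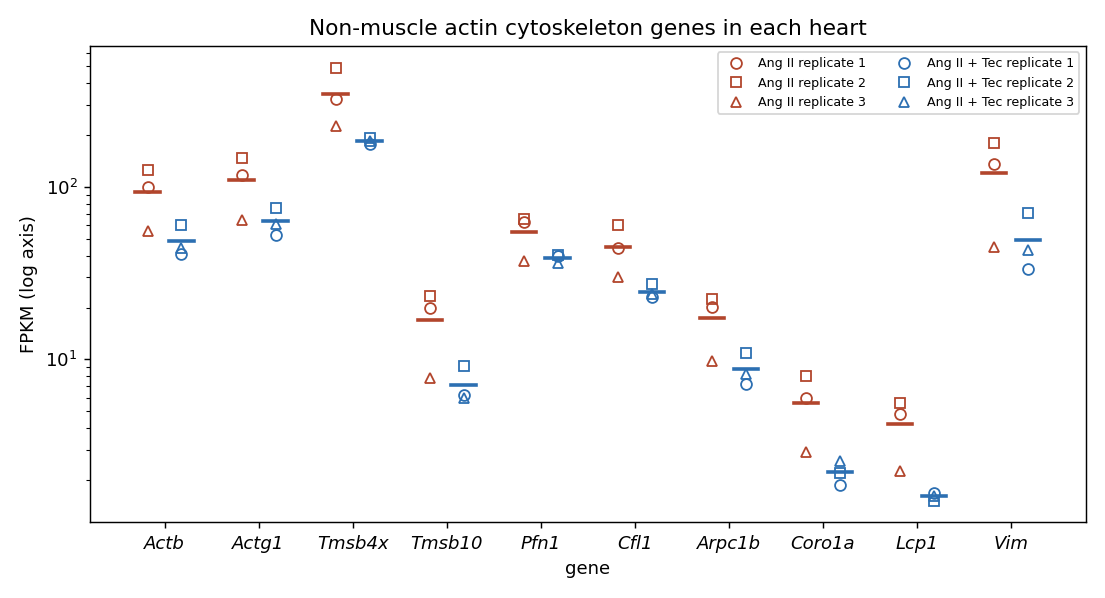
FPKM (log axis) of each gene in the 3 Ang II hearts (red) and the 3 Ang II + Tec hearts (blue), with replicate 1 as a circle, 2 as a square, 3 as a triangle and the group mean as a bar. Ang II replicates 1 and 2 lie above the other 4 libraries for all 10 genes, and Ang II replicate 3 lies beside the Ang II + Tec hearts.

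The number of the 10 genes with an adjusted p under 0.05 depended on Ang II replicate 3. This library was the lowest Ang II library for all 10 genes, so leaving it out had to widen every difference. Without that library all 10 genes had an adjusted p under 0.05 in limma, with log2 fold changes from -1.71 for Vim to -0.70 for Pfn1 and adjusted p-values from 0.00164 to 0.00869. The same held then for 28.8% of all tested genes, and for 27.1% when limma weighted the libraries by their fit, where again all 10 passed. The number of the 10 genes with an unadjusted p under 0.05 was 4 when any 1 of 4 other libraries was left out, namely Ang II replicate 1 or 2, or Ang II + Tec replicate 1 or 3. In these fits 7.4, 8.96, 9.46 and 9.1% of all tested genes had such a p, in the order named, and 43.7% did when Ang II replicate 3 was left out.

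**Figure D2:**
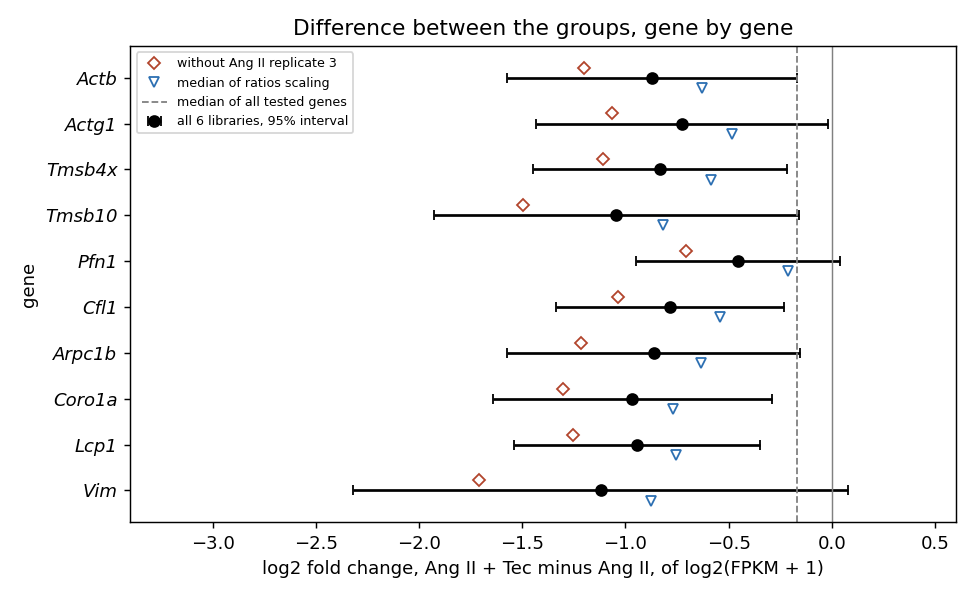
Difference in log2(FPKM + 1), Ang II + Tec minus Ang II, of each gene with its 95% interval (black), without Ang II replicate 3 (red) and with median of ratios scaling (blue). The black points lie between -1.12 and -0.45, and without Ang II replicate 3 every point lies further from 0; the dashed line is the median of all tested genes at -0.17.

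Both cytoplasmic actins were about as abundant as each other and moved together from heart to heart. Actb, encoding β-actin, was at 99.87, 124.84 and 55.54 FPKM with Ang II alone and at 40.96, 60.42 and 44.54 FPKM with Ang II + Tec. The means were 93.4 ± 35.1 and 48.6 ± 10.4 FPKM (SD, n = 3 each), a log2 fold change of -0.87 (SE 0.30, 95% interval -1.57 to -0.17, limma adjusted p 0.229). The groups overlapped, because Ang II + Tec replicate 2 stood higher than Ang II replicate 3. Actg1, encoding γ-actin, was at 117.08, 147.87 and 64.20 FPKM with Ang II and at 52.52, 75.98 and 60.62 FPKM with Ang II + Tec. Its log2 fold change was -0.72 (SE 0.30, limma adjusted p 0.264), again with overlap through the same libraries. The row of Gm12715, a gene that shares sequence with Actg1, had a ratio of group means of 0.573, beside 0.575 for Actg1 itself.

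The ratio of Actg1 to Actb within a library, on which the scaling of the library has no bearing, was nearly constant. It was 1.17, 1.18 and 1.16 with Ang II and 1.28, 1.26 and 1.36 with Ang II + Tec. The groups did not overlap, with a difference of 0.15 on the log2 scale and a two-sided exact permutation p of 0.1, which is the smallest that 3 against 3 libraries allow. Over the 10 ratios computed here the adjusted p was 0.5. The ratio of Arpc1b to Actb was the steadiest of the 10, at 0.175 to 0.202 in all 6 libraries.

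The muscle actins, of which 3 of 4 had a lower mean with Tec, had a median log2 fold change of -0.40. Over all tested genes the median was -0.17, and 80.0% lay below 0. Actc1, the cardiac α-actin of the sarcomere, stood at 3498 to 4734 FPKM with Ang II and 2763 to 3532 FPKM with Ang II + Tec, a log2 fold change of -0.34 (limma adjusted p 0.308). Acta1, the skeletal α-actin that the fetal heart also uses, was at 196, 265 and 137 FPKM with Ang II and at 627, 195 and 89.2 FPKM with Ang II + Tec. The log2 fold change of Acta1 was 0.20 and its libraries were spread over 7.03-fold. Acta2, the smooth muscle α-actin, had a log2 fold change of -0.50 (adjusted p 0.571) and Actg2, the enteric γ-actin, one of -0.46 (adjusted p 0.625). None of the 4 muscle actins had an unadjusted p under 0.05. Actb and Actg1 together made up 4.15, 5.92 and 3.14% of the FPKM of the 6 actins with Ang II and 2.18, 3.63 and 3.50% with Ang II + Tec. The mean shares were 4.40 ± 1.41% and 3.10 ± 0.801% (SD, n = 3 each), with a two-sided exact permutation p of 0.3.

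Among the monomer-binding proteins, Tmsb4x was the most abundant of the 10 genes. Tmsb4x, encoding thymosin β4, was at 323.9, 491.74 and 224.54 FPKM with Ang II and at 177.66, 191.77 and 185.01 FPKM with Ang II + Tec. All 3 Ang II hearts lay above all 3 Ang II + Tec hearts, with a log2 fold change of -0.83 (SE 0.26, limma adjusted p 0.222). The Ang II + Tec hearts were tightly grouped, with a coefficient of variation of 3.82%, beside 39.0% in the Ang II hearts. Tmsb10, encoding thymosin β10, was at 19.81, 23.45 and 7.78 FPKM with Ang II and at 6.21, 9.19 and 5.94 FPKM with Ang II + Tec. Its log2 fold change was -1.04 (SE 0.38, adjusted p 0.235) and its groups overlapped. Tmsb4x exceeded Tmsb10 by 16.4 to 31.1-fold, so the thymosin pool of these hearts was almost entirely β4 at the mRNA level. Pfn1, encoding profilin 1, was at 62.38, 64.90 and 37.45 FPKM with Ang II and at 39.79, 40.04 and 36.26 FPKM with Ang II + Tec. It had the smallest difference of the 10 genes, with a log2 fold change of -0.45 (SE 0.21, 95% interval -0.95 to 0.041, adjusted p 0.290). Relative to Actb, Pfn1 was at 0.520 to 0.674 with Ang II and at 0.663 to 0.971 with Ang II + Tec, with overlap (two-sided exact permutation p 0.2).

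The genes of filament turnover and branching followed. Cfl1, encoding the filament-severing cofilin 1, was at 44.39, 60.07 and 30.10 FPKM with Ang II and at 22.98, 27.22 and 24.05 FPKM with Ang II + Tec. Its groups did not overlap, and the log2 fold change was -0.78 (SE 0.24, limma adjusted p 0.221). Arpc1b, the subunit of the Arp2/3 complex that is abundant in blood cells, was at 20.20, 22.52 and 9.77 FPKM with Ang II and at 7.17, 10.86 and 8.22 FPKM with Ang II + Tec. Ang II + Tec replicate 2 lay above Ang II replicate 3, and the log2 fold change was -0.86 (SE 0.30, adjusted p 0.232). Its alternative subunit Arpc1a, which takes the same place in the complex, had a log2 fold change of -0.16 (adjusted p 0.577), with 13.8 to 17.8 FPKM with Ang II and 12.8 to 18.1 FPKM with Ang II + Tec.

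Coro1a and Lcp1 were the least abundant of the 10 and had no overlap between groups. Coro1a, encoding coronin 1A of leukocytes, was at 5.96, 7.97 and 2.92 FPKM with Ang II and at 1.87, 2.19 and 2.58 FPKM with Ang II + Tec, a log2 fold change of -0.97 (SE 0.29, limma adjusted p 0.221). Lcp1, encoding the filament-bundling L-plastin, was at 4.85, 5.59 and 2.26 FPKM with Ang II and at 1.68, 1.52 and 1.62 FPKM with Ang II + Tec. The log2 fold change of Lcp1 was -0.94 (SE 0.25, adjusted p 0.201), the lowest adjusted p of the 10. Vim, encoding vimentin, spread the most. It was at 135.46, 178.91 and 44.88 FPKM with Ang II and at 33.58, 70.89 and 43.08 FPKM with Ang II + Tec, with a log2 fold change of -1.12 (SE 0.51, 95% interval -2.32 to 0.079, adjusted p 0.285). The Ang II mean of 120 ± 68.4 FPKM carried a wide error because replicate 3 lay at the level of the Ang II + Tec hearts.

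In order of mean level with Ang II, Tmsb4x at 347 FPKM was followed by Vim at 120, Actg1 at 110, Actb at 93.4, Pfn1 at 54.9, Cfl1 at 44.9, Arpc1b at 17.5, Tmsb10 at 17.0, Coro1a at 5.62 and Lcp1 at 4.23 FPKM. The standard deviations of neighbours in this order overlapped except between Tmsb4x and Vim, and between Cfl1 and Arpc1b and between Tmsb10 and Coro1a. With Ang II + Tec the order was Tmsb4x at 185, Actg1 at 63.0, Vim at 49.2, Actb at 48.6, Pfn1 at 38.7, Cfl1 at 24.8, Arpc1b at 8.75, Tmsb10 at 7.11, Coro1a at 2.21 and Lcp1 at 1.61 FPKM. Vim and Actg1 thus exchanged places within their errors, and the other 8 genes had the same order.

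The summed markers of leukocytes, fibroblasts, erythroid cells and endothelial cells, like the 10 genes, were highest in Ang II replicates 1 and 2. In these libraries the erythroid sum was 648 and 1018 FPKM, and at most 526 FPKM elsewhere. The margin of the endothelial sum was small, at 108 and 116 FPKM beside 107 FPKM in Ang II replicate 3. Of 15 leukocyte markers 11 were expressed highly enough for the test, all 11 had a lower mean with Tec and an unadjusted p under 0.05, and 0 had an adjusted p under 0.05. Of all tested genes 80.0% had a log2 fold change below 0, and 16.5% had a lower mean and an unadjusted p under 0.05. The summed leukocyte markers ranged from 283 to 567 FPKM with Ang II and from 190 to 208 FPKM with Ang II + Tec. The T and B cell genes Cd3e, Cd79a and Ms4a1 stayed at or under 0.30 FPKM in every library. All 9 fibroblast markers had a lower mean with Tec, and their sum ranged from 218 to 1159 FPKM with Ang II and from 174 to 301 FPKM with Ang II + Tec. The fibroblast sum was 895 and 1159 FPKM in Ang II replicates 1 and 2 and 218 FPKM in Ang II replicate 3. The endothelial sum ranged from 107 to 116 FPKM with Ang II and from 93.3 to 102 FPKM with Ang II + Tec. The smooth muscle and pericyte sum ranged from 214 to 448 FPKM with Ang II and from 168 to 334 FPKM with Ang II + Tec. The erythroid sum ranged from 248 to 1018 FPKM and from 147 to 526 FPKM, and the sum of 6 skeletal muscle genes from 544 to 697 FPKM and from 643 to 1329 FPKM. The study describes the sequenced material only as cardiac tissue. The atrial sum was 637 and 797 FPKM in Ang II replicates 1 and 2, 1568 FPKM in Ang II + Tec replicate 2 and at most 2.62 FPKM elsewhere. The part of the atrial markers, and of the markers above, in the differences of the 10 genes was not tested. In heart tissue, fewer cells of a type and less RNA per cell cannot be told apart.

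The stability of Actb as a reference gene was examined over the 6 libraries. Its coefficient of variation was 47.5%, and its highest library exceeded its lowest by 3.05-fold. This was above that of 89.4% of all tested genes, whose median was 19.9%, and above that of 92.4% of the 1543 genes with a mean of at least 20 FPKM, whose median was 16.3%. The coefficient was 37.6% within the Ang II hearts and 21.3% within the Ang II + Tec hearts. After rescaling each library by the median of ratios, the coefficient of Actb was 33.2%, and leaving out single libraries gave 39.0 to 52.5%.

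Among 18 genes in common use as references, Actb ranked 16th from the most even, with only Gapdh at 56.6% and Tfrc at 80.2% above it. Among the more even genes were Polr2a, encoding the largest subunit of RNA polymerase II, at 13.6%, Sdha, of the mitochondrial respiratory chain, at 15.7% and Tbp, the TATA-binding protein, at 18.5%. Polr2a was at 3.68, 3.35 and 3.11 FPKM with Ang II and at 2.85, 3.56 and 2.55 FPKM with Ang II + Tec, where the groups overlapped and the log2 fold change was -0.14 (95% interval -0.45 to 0.17). A second measure follows the geNorm procedure but takes log2(FPKM + 1). It is the mean over all other references of the standard deviation of the pairwise difference, and depends less on the scaling of libraries. The measure was 0.458 for Actb, rank 12 of 18, and was lowest for Hprt at 0.323 and Pgk1 at 0.331 and highest for Gapdh at 1.00. Adding 1 narrows the differences of low references, such as Lmnb1 at 0.63 to 2.06 FPKM, which ranked 3 with a coefficient of variation of 45.2%. The ranks without the added 1 were not computed. Of the 18 references, 15 had a lower mean with Tec, close to the share of 80.0% over all tested genes. An unadjusted p under 0.05 with a lower mean was reached by 10 of the 18, where 16.5% of all tested genes did so. The median log2 fold change of the 18 was -0.49, beside -0.17 over all tested genes. None of the 18 had an adjusted p under 0.05 in limma, while Tfrc, encoding the transferrin receptor, had the largest difference at -1.86 (adjusted p 0.115).

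**Figure D3:**
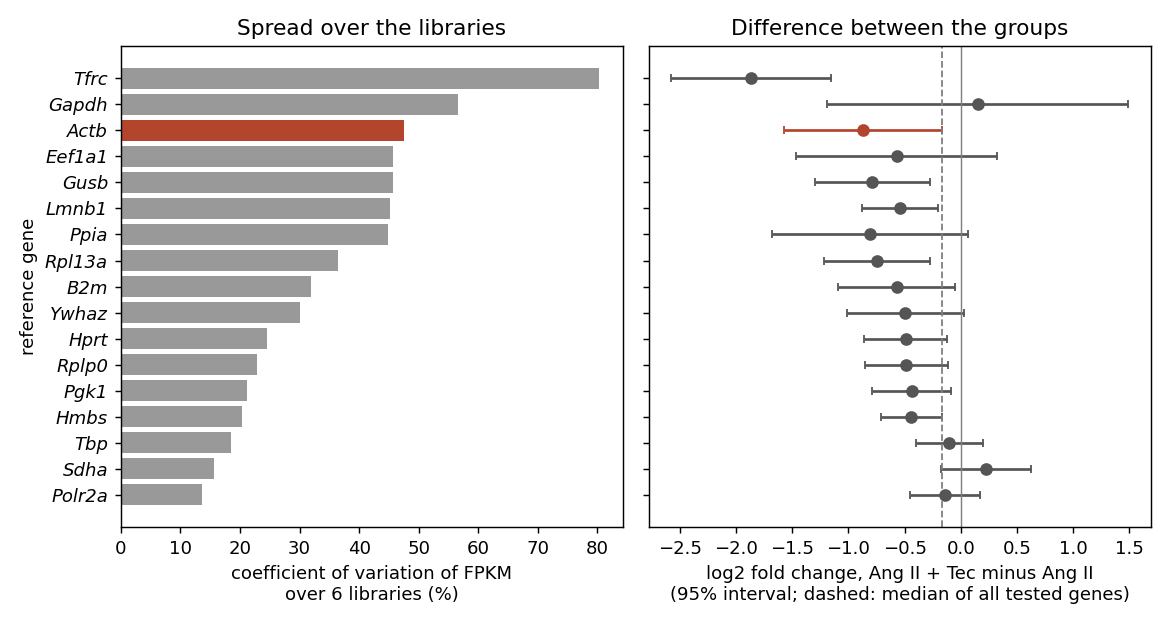
Left, coefficient of variation of the FPKM of 17 of the 18 reference genes over the 6 libraries, as bars from 0; right, their log2 fold change, Ang II + Tec minus Ang II, with 95% intervals. Actb, in red, has a coefficient of 47.5% and a log2 fold change of -0.87, and Polr2a at the bottom has 13.6% and -0.14.

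The row of Gapdh, the other classical reference, was at 35.02, 10.59 and 11.75 FPKM with Ang II and at 29.69, 8.14 and 24.93 FPKM with Ang II + Tec. Glyceraldehyde-3-phosphate dehydrogenase is an abundant enzyme of glycolysis, but in every library the row of its pseudogene Gapdh-ps15, at 39.8 to 54.4 FPKM, was above the row of Gapdh itself. Summed with its named pseudogenes, Gapdh had a coefficient of variation of 18.7%. How much of the Gapdh row rests on the assignment of reads shared with these copies was not tested.

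The hypertrophy genes were set against each reference, which subtracts the same amount from every gene of a library. Myh7, the β-myosin heavy chain, and Nppa and Nppb, the natriuretic peptides, are the mRNAs that the study measured by qPCR. The study also lists log2 fold changes of these mRNAs from its sequencing, all below 0, without stating how they were computed. Here their own FPKM were taken relative to each reference in the same library, and the study's qPCR readings were not analysed here. Without a reference, the log2 fold changes were -0.59 for Myh7, -1.69 for Nppa and -0.88 for Nppb. Relative to Actb they were 0.29 for Myh7, -0.82 for Nppa and -0.013 for Nppb. Relative to the mean of all 18 references they were -0.090, -1.20 and -0.39 for Myh7, Nppa and Nppb in that order, and relative to Gapdh -0.74, -1.84 and -1.03. The groups overlapped in all 12 comparisons. Two-sided exact permutation p-values were 0.3 to 1, and adjusted values over the 12 were 0.72 to 1. Nppa alone ranged from 256 to 9456 FPKM in the Ang II hearts and from 125 to 3489 FPKM in the Ang II + Tec hearts. Its highest library was replicate 2 in both groups, where the summed atrial markers were at 797 FPKM with Ang II and 1568 FPKM with Ang II + Tec. Its lowest was replicate 3 in both groups, where they were at 0.61 and 2.62 FPKM. The part of atrial tissue in the Nppa levels was not tested. Without Ang II + Tec replicate 3 the difference of Nppa relative to Actb was 0.40.

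**Figure D4:**
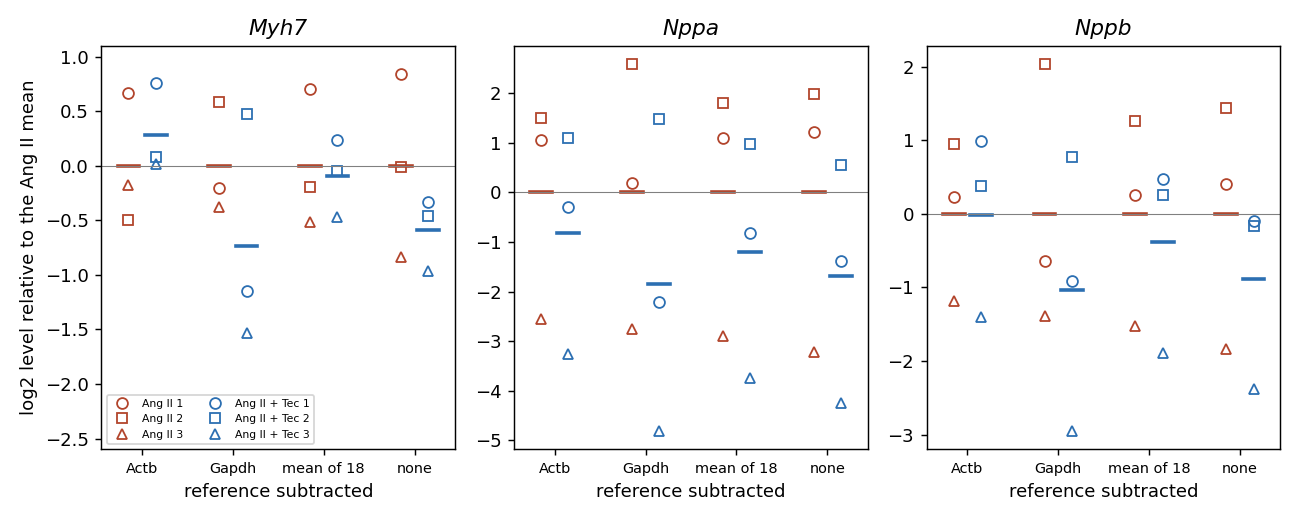
Log2 level of Myh7, Nppa and Nppb in each library after subtracting the log2 level of Actb, of Gapdh, of the mean of 18 reference genes or of nothing, relative to the Ang II mean, with symbols as in the plot of the 10 genes and group means as bars. For Myh7 the Ang II + Tec mean lies 0.29 above 0 with Actb and 0.74 below it with Gapdh, and the hearts of both groups overlap in every column.

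Likeness to Actb over the 6 libraries was measured by the root mean square difference of the centred values of log2(FPKM + 1). With the 10 genes described here left out, the nearest were Sec61b at 0.043, Tceal8 at 0.057, Sdf2l1 at 0.064, Ccn4 at 0.070 and Gpx1 at 0.071. Of the genes left out, 1 other than Actb itself lay closer to Actb than Gpx1 did. Ccn4 was low, at 0.58 to 2.73 FPKM with Ang II and 0.13 to 0.87 FPKM with Ang II + Tec. At such levels adding 1 narrows the differences, and its FPKM were spread over 21-fold, beside 3.05-fold for Actb. Sec61b, a subunit of the protein channel of the endoplasmic reticulum, was at 11.43, 14.46 and 5.38 FPKM with Ang II and at 4.09, 6.48 and 4.52 FPKM with Ang II + Tec, the same order of libraries as Actb. Actg1 stood at 0.081, rank 10 among all tested genes when the genes described here were counted too.

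The other genes of the actin cytoskeleton were taken from 6 lists by function, 81 genes in all without the 10 above, and every one was expressed highly enough for the test. Of the 81, 74 had a log2 fold change below 0, with a median of -0.37. An unadjusted p under 0.05 was reached by 27 with a lower mean and by 1 with a higher mean, and by 0 after adjustment. The groups did not overlap for 21 genes that were lower and for 1 that was higher with Tec. Of all tested genes 2.9% were higher without overlap, and the other shares of all tested genes are those given above. The count of 28 was 60 when Ang II replicate 3 was left out. It was 11 when replicate 1 of the Ang II group was left out and 12 when replicate 2 was, and in the Ang II + Tec group it was 15 when replicate 1 was left out and 14 when replicate 3 was.

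By function, the remaining 8 subunits of the Arp2/3 complex, which branches filaments, all lay below 0, with a median of -0.47 and 5 with an unadjusted p under 0.05. Actr3, the actin-related subunit at the branch, was at 33.4, 41.1 and 23.5 FPKM with Ang II and at 19.0, 21.6 and 19.7 FPKM with Ang II + Tec, without overlap (log2 fold change -0.64, limma adjusted p 0.221). For all lists here the shares of all tested genes were 80.0% below 0, and 16.5% lower and 2.09% higher with an unadjusted p under 0.05. Of 19 genes of monomer binding and filament turnover 17 lay below 0 and 5 had such a p. Of 16 genes that crosslink filaments or tie them to membranes 14 lay below 0 and 4 had such a p. Of 25 genes of nucleation and signalling 24 lay below 0 and 8 had such a p. All 6 genes of intermediate filaments and lamins lay below 0, with 3. Of 7 genes of non-muscle myosin and tropomyosin 5 lay below 0, with 2 lower and 1 higher.

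**Figure D5:**
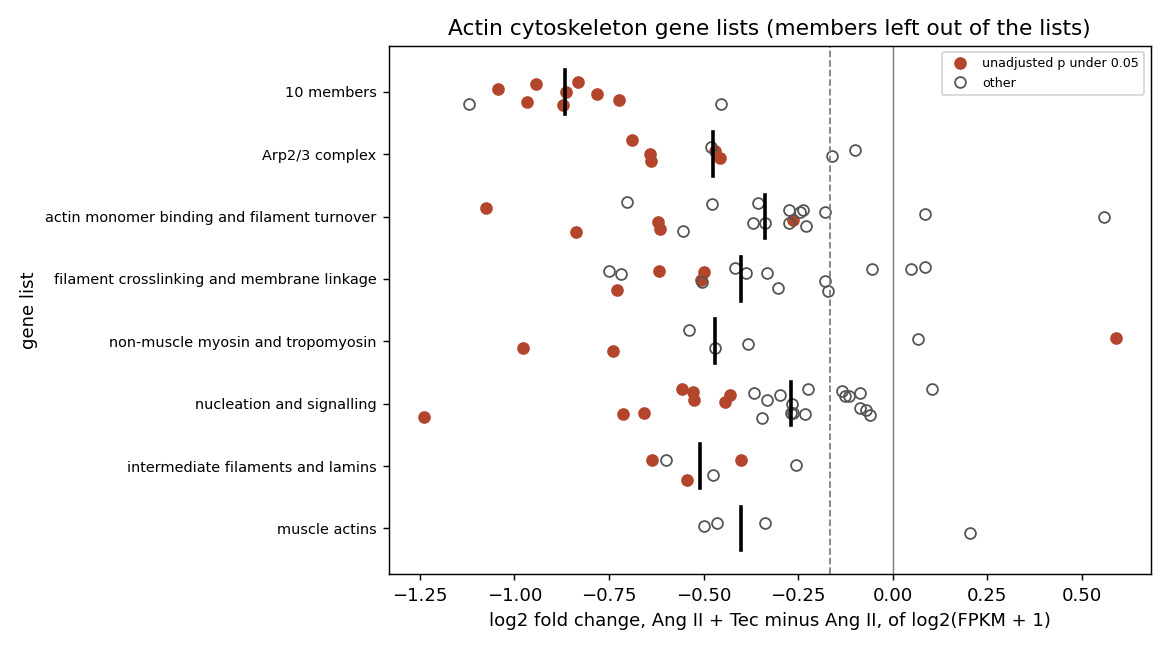
Log2 fold change, Ang II + Tec minus Ang II, of each tested gene in 7 lists and of the 10 genes described, with filled points for an unadjusted p under 0.05, black bars for list medians and a dashed line for the median of all tested genes at -0.17. The 10 genes have a median of -0.87 and the Arp2/3 list one of -0.47; Tpm3, at 0.59, is the one filled point above 0.

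The lowest values in these lists were those of Rhoc, Capg and Myl6. Rhoc, a small GTPase that signals to actin, was at 54.6, 71.0 and 23.9 FPKM with Ang II and at 18.1, 20.9 and 17.1 FPKM with Ang II + Tec, a log2 fold change of -1.24 (limma adjusted p 0.218). Capg, a capping protein of macrophages, was at 10.1, 12.0 and 3.52 FPKM with Ang II and at 3.01, 3.40 and 2.94 FPKM with Ang II + Tec (log2 fold change -1.08, adjusted p 0.229). Both had no overlap between groups, though Ang II replicate 3 lay near the Ang II + Tec hearts. Myl6, the light chain of non-muscle myosin, had a log2 fold change of -0.98 (adjusted p 0.266) with overlap. The highest values were those of Tpm3, Gsn and Mrtfb. Tpm3, a tropomyosin that coats filaments, was at 3.29, 4.08 and 5.00 FPKM with Ang II and at 6.10, 7.46 and 6.42 FPKM with Ang II + Tec. All Ang II + Tec hearts thus lay above all Ang II hearts, with a log2 fold change of 0.59 (SE 0.15, adjusted p 0.201). Gsn, the severing protein gelsolin, was at 333, 289 and 226 FPKM with Ang II and at 307, 606 and 375 FPKM with Ang II + Tec, with overlap (0.56, adjusted p 0.296). Mrtfb, a coactivator of serum response factor, had a log2 fold change of 0.10 (adjusted p 0.605).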

How the data were processed

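Reads had been filtered with Cutadapt and inspected with FastQC, and the authors deposited one table of FPKM (30914 genes, 6 libraries). The submitters' processing notes name HISAT2 2.0, StringTie 1.3.0, Bowtie 0.12.2 and the build mm8 without their roles, while 90.5% of the genes shared with GENCODE M21 (GRCm38) have its coordinates. How reads shared by copies of a gene were assigned, which bears on Actg1 and Gapdh, is not given in the sources used here. Values of log2(FPKM + 1) were computed without further scaling. Genes with at least 0.5 FPKM in at least 3 libraries (13089) were tested with limma 3.58.1 in R 4.3.3 (eBayes with trend, no block) and Benjamini-Hochberg adjustment, and the fit was tested on simulated data. Single values were compared with exact two-sided permutation tests over libraries. The number of libraries sets the precision, and no interval from counts can be given.

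The 10 genes and all lists were chosen with earlier results of these data known. The genes named are the 10, the muscle actins, examples of the 18 references and the qPCR targets. Also named are the 3 lowest and 3 highest other cytoskeleton genes, and the 5 genes outside the 10 that lay nearest to Actb. Gm12715, Gapdh-ps15, Pdap1, Lrrc58, Gm4750 and Gm8464 are named as rows that share a name or sequence with these. Arpc1a, Actr3, Myh6 and the lymphocyte markers were named after their values were seen, and the atrial markers are a list given in full. Of the marker lists, Myh4 was not found. The values of 1 reference gene are not reported here.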

Additional observations from a re-analysis of the deposited data

How the results depend on the processing

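All 10 genes had a log2 fold change below 0 under each of 16 alternatives: another pseudocount, 2 other filters, 3 other scalings, 3 other variance or weighting choices, the replicate block and 6 fits that left out a library. The order of the 10 genes by size depended on the pseudocount. With 0.1 in place of 1, Lcp1 was at -1.25 and Coro1a at -1.20, both below Vim at -1.13. Library weights gave 10 of the 10 genes an adjusted p under 0.05, where 27.1% of all tested genes had one. They gave 66 cytoskeleton list genes an unadjusted p under 0.05 and Actb a log2 fold change of -1.22 (limma adjusted p 0.0271), and the weighting did not converge fully. Quantile normalization gave 18 list genes. For both of these fits the share of all tested genes with an unadjusted p under 0.05 was not computed, so the counts of list genes cannot be set against it. Leaving out single libraries gave 0 to 10 of the 10 genes with an adjusted p under 0.05, the 10 without Ang II replicate 3, and 4 to 10 with an unadjusted p under 0.05. It gave 11 to 60 list genes and a log2 fold change of Actb between -1.20 and -0.63 (limma adjusted p 0.00656 to 0.650). Over all tested genes it gave 3776 calls without Ang II replicate 3 and 2 to 7 in the other cases. No filter gave 3 such calls, and a mean of at least 1 FPKM gave 15. These low counts limit what an adjusted p above the threshold can show.

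Rescaling moved the median of all tested genes from -0.17 to 0.0087 (median of ratios) and to 0.020 (quantile normalization). Actb was at -0.63 in both, so its difference relative to that median was about as large, and its coefficient of variation was 33.2% and 35.2%. For Myh7, the log2 fold change was 0.29 relative to Actb. It was below 0 with Gapdh (-0.74), the mean of 18 references (-0.090) or no reference (-0.59). The groups overlapped in each case. Without single libraries the log2 fold change relative to Actb was 0.035 to 0.62 for Myh7, -2.10 to 0.40 for Nppa and -0.60 to 0.68 for Nppb. Nppa was at 0.40 without Ang II + Tec replicate 3, and Nppb was at 0.68 without the same library. Nppb was also above 0 when an Ang II heart was left out, at 0.10 for replicate 1 and 0.46 for replicate 2. The cause was not tested.

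Equal replicate numbers are different mice. Their deviations from the group means correlated at -0.039, 0.43 and 0.38 for numbers 1, 2 and 3, so the numbers were not taken as a pairing. With the replicate block, 0 of the 10 genes had an adjusted p under 0.05 and 10 an unadjusted one, 44 list genes had an unadjusted p under 0.05, and Actb had a limma adjusted p of 0.118. In this fit 23 of all 13089 tested genes had an adjusted p under 0.05. The share with an unadjusted p under 0.05 was not computed, so the counts of 10 and 44 cannot be set against it.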

Other observations

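In the primer list of the study, the reverse primer given for mouse Myh7 is cacagcttctctttgatgtcac, the same 22 bases as the reverse primer of Actb. It was found in no Myh7 transcript of GENCODE M21, and among the genes that hold it are Actb and Lrrc58, the latter at 5.53 to 8.12 FPKM. The forward primer given for Myh7, cagaacaccagcctcatcaaccag, was found in Myh7 and also in Myh6, the α-myosin heavy chain, which was at 678 to 1153 FPKM with Ang II and 1137 to 1491 FPKM with Ang II + Tec, beside 44.0 to 156 FPKM for Myh7 over all libraries. Whether the printed list matches the primers that were used was not tested. The forward primer of Actb was found in Actb, Gm4750 and Gm8464, and the rows of Gm4750 and Gm8464 were listed at 0 in all 6 libraries.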
